A study of Caenorhabditis elegans with 2 samples.

Results

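The genes atx-2, ecps-1, tasp-1 and K01G5.10 are the 4 genes of 2 divergent promoters on chromosome III that carried the highest and the third highest promoter signal on the nuclear chromosomes in a chromatin immunoprecipitation and sequencing (ChIP-seq) map of ZTF-11. They were selected by signal in the list of peaks thresholded for reproducibility. That list held 721 peaks, of which 698 lay on nuclear chromosomes and 391 of those in promoter windows, so the 2 peaks described here are 2 of 391. Promoter windows spanned 1000 bp before and 200 bp after each protein-coding 5′ end, and 529 of 19973 protein-coding genes (2.65%) had a thresholded summit in it. The libraries were 2 biological replicates of whole mixed-stage embryos of both sexes from strain OP236, which has the genotype unc-119(ed3) III; wgIs236, where wgIs236 is an insertion for ztf-11, and the protein mapped was eGFP-ztf-11. Both replicates shared this genotype and stage, no second condition was mapped, and the antibody is labelled ztf-11. The animals were not sorted, so the cells in which a site was occupied are not known. Read depth is unknown, and the signal is a value per peak from the authors' caller, set against a control, on a scale that is not stated. It is used here to rank and describe peaks within a list.

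ZTF-11 belongs to the Myt1 family of zinc finger factors, repressors that act in neurogenesis. Divergent promoters are stretches between 2 genes that are transcribed away from each other, so that a single bound site can lie upstream of both. Of the 4 genes, atx-2 encodes the homologue of ataxin-2, an RNA-binding regulator of translation that is needed for germline and early embryonic development. The name of ecps-1 refers to the human proteasome adaptor ECPAS, whose yeast homologue Ecm29 binds the proteasome. The product of tasp-1 is the homologue of taspase 1, a threonine aspartase that in mammals cleaves MLL histone methyltransferases and the large precursor of the general transcription factor TFIIA. No role is given here for K01G5.10.

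The intergenic part of each peak is printed on the plus strand of ce11, because 4 of the 5 longest words that both peaks share lie in it at both sites. Capitals mark every stretch of 8 or more bases that the other peak also holds, in either orientation. The atx-2 peak is shown from chrIII:10461201-10461388 (188 of its 245 bp, up to the base before the first 5′ end of atx-2, with the summit at base 126). The tasp-1 peak is shown from chrIII:10759134-10759306 (173 of its 196 bp, with the summit at base 107).
atx-2 peak: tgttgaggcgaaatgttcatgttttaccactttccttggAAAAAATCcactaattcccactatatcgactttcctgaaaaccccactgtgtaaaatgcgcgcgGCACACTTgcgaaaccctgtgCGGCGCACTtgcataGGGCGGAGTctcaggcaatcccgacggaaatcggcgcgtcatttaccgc
tasp-1 peak: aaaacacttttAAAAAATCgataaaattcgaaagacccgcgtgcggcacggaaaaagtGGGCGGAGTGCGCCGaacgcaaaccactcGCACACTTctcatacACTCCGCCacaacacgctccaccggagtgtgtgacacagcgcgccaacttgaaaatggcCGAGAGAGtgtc

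The atx-2 peak had a signal of 267 in the thresholded and pooled lists, 142 in replicate 1 and 118.8 in replicate 2. It ranked 1 of 11998 nuclear peaks in the pooled list, 1 of 29974 in replicate 1 and 2 of 29976 in replicate 2. The tasp-1 peak had a signal of 184 in the thresholded and pooled lists, 105 in replicate 1 and 80.3 in replicate 2, and ranked 3 in the pooled list, 3 in replicate 1 and 4 in replicate 2. Both peaks were thus near the top of each library taken alone. The signal that selected them was called on these same 2 libraries together, so high ranks in each follow in part from the selection. For scale, the median signal of nuclear peaks was 45.8 in the thresholded list, 15.4 in the pooled list, 8.04 in replicate 1 and 5.83 in replicate 2. Both peaks had a higher signal in replicate 1 than in replicate 2, as did 457 of the 698 nuclear peaks (65.5%), and signal values of separately called lists share no stated scale.

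Around the selection limit, the peak with the second highest promoter signal, at his-67 and his-68 (histone genes) and alg-5, had 256 in the pooled list, 132 in replicate 1 and 127 in replicate 2. The next promoter peak below the tasp-1 peak was that of the histone genes his-31 and his-32. It had 149 in the pooled list, 75.4 in replicate 1 and 74.98 in replicate 2. Between them in the nuclear ranking lay sites on X outside promoter windows, with 159.0 and 150.7. The tasp-1 peak was above the his-31 and his-32 peak in each list. The order of the atx-2 peak and the his-67 and his-68 peak differed between the libraries, since the atx-2 peak was higher in replicate 1 and lower in replicate 2. Only the peaks of atx-2, his-67 and his-68, and tasp-1 were among the 5 strongest nuclear peaks of both replicates. A further 3 joined them among the 10 strongest of both.

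**Figure D1:**
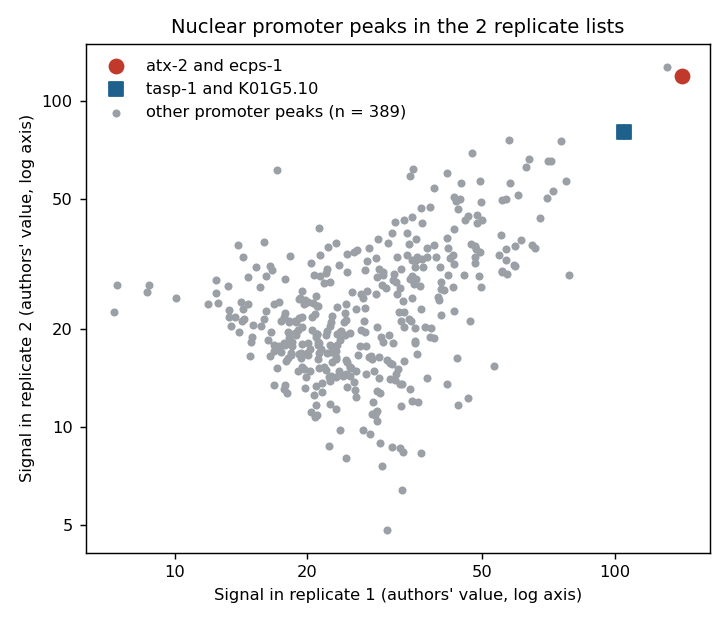
Signal of the 391 nuclear promoter peaks in replicate 1 (x axis) and replicate 2 (y axis), in the authors' values on log axes, each point being the strongest overlapping peak of that replicate. The atx-2 peak (142 and 118.8) and the tasp-1 peak (105 and 80.3) stand at the upper right, where the only grey point near the atx-2 peak is the his-67 and his-68 peak.

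The promoter peaks most like these 2 in level were, after the 2 histone pairs, those of rpl-3, a ribosomal protein gene, serp-1.1, the pair idhg-1 and mlcd-1 tos-1, nspc-17 and the endoplasmic reticulum chaperone gene hsp-3. Their pooled signals lay between 124 for hsp-3 and 137 for rpl-3. None of these 6 was above 77.5 in replicate 1 or above 75.7 in replicate 2, so that the signal of the tasp-1 peak exceeded them all in both libraries. The replicate ranks of the atx-2 peak and of the tasp-1 peak differed by 1, as did those of the rpl-3 peak and of the idhg-1 and mlcd-1 peak. The peak of tos-1 ranked 36 in replicate 1 and 5 in replicate 2, and that of nspc-17 ranked 7 in replicate 1 and 23 in replicate 2.

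Both peaks were narrower than the maximum width, as were 14 of the 20 strongest nuclear peaks. The atx-2 peak was 245 bp wide in the pooled list, 184 bp in replicate 1 and 210 bp in replicate 2. The tasp-1 peak was 196 bp wide in the pooled list, 125 bp in replicate 1 and 112 bp in replicate 2. The lists had a maximum width of 356 bp when pooled, 350 bp in replicate 1 and 364 bp in replicate 2, and 29 of the 698 thresholded nuclear peaks were below it, of which 26 were narrower than the atx-2 peak and 24 narrower than the tasp-1 peak. These 29 all had a signal of 83.1 or more, with a median width of 142 bp and a range from 89 to 293 bp. In the replicate lists only 7 nuclear peaks of replicate 1 and 11 of replicate 2 were below the maximum. Just 6 thresholded peaks were narrow in the pooled and both replicate lists. They were the peaks of atx-2 and ecps-1, of tasp-1 and K01G5.10, of both histone pairs, of idhg-1 and mlcd-1, and a site outside promoter windows on X at 4209182 to 4209386. All of these but the X-linked site were divergent promoters. Of the 391 promoter peaks 113 were divergent by the same rule (a 5′ end on each side of the summit, pointing away from it). The narrow divergent peaks ranked 1, 2, 3, 4 and 7 by promoter signal, and 2 of them were selected here as strong divergent promoters. Whether narrow width goes with divergence at a given signal was not tested.

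**Figure D2:**
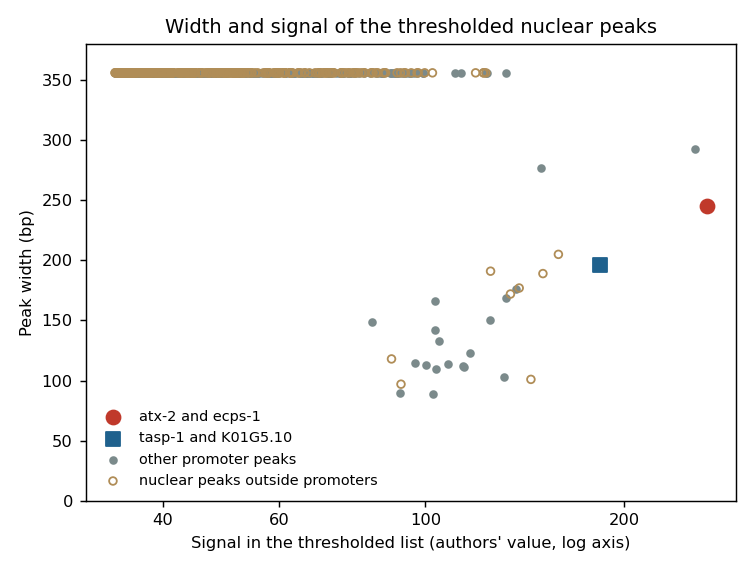
Width in bp (y axis) against signal in the thresholded list (x axis, log) for the 698 nuclear peaks. Most points lie on the maximum of 356 bp, while the atx-2 peak (245 bp) and the tasp-1 peak (196 bp) lie below it at the right.

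The summits of the 2 libraries lay close together. For the atx-2 peak the summit was base 10461326 in the pooled list and in replicate 1, and base 10461325 in replicate 2, a distance of 1 bp. For the tasp-1 peak it was base 10759240 in the pooled list and in replicate 1, and base 10759255 in replicate 2, a distance of 15 bp. Over the 698 nuclear peaks the median distance between replicate summits was 37 bp, 3.15% were within 1 bp and 28.4% within 15 bp. Both peaks were also below the maximum width, and whether width accounts for the distances was not tested.

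Each summit lay close to 1 of its 2 genes. The atx-2 summit was 63 bp upstream of the first 5′ end of atx-2 (transcript D2045.1d.1, base 10461389) and 775 bp upstream of ecps-1 (base 10460551). The tasp-1 summit was 67 bp upstream of the first 5′ end of tasp-1 (transcript K01G5.9.3, base 10759307) and 718 bp upstream of K01G5.10 (base 10758522). The layout was therefore alike at the 2 loci, with stretches of 837 bp and 784 bp between the divergent 5′ ends and the summit 92.5% and 91.5% of the way along them, towards the plus-strand gene in both. Downstream 5′ ends of the same genes lay farther off, at 302 and 387 bp for the next 2 transcripts of atx-2 and at 145 and 429 bp for those of tasp-1. The remaining atx-2 transcript, D2045.1b.1, starts 3130 bp away inside the gene.

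The peaks also reached into the transcribed part of the near gene only. The atx-2 peak covered 57 bp of transcript D2045.1d.1 and no base of ecps-1. The tasp-1 peak covered 23 bp of transcript K01G5.9.3 and no base of K01G5.10. Over the 113 thresholded peaks at divergent promoters, the median distance was 173 bp to the nearer 5′ end and 407 bp to the farther one, with a median of 581 bp between the 5′ ends. In 24 of the 113 (21.2%) the nearer 5′ end was within 67 bp, so nearness alone does not set these 2 sites apart from the other divergent promoters. The lopsided layout was not confined to them either, with 65 and 602 bp at the pair idhg-1 and mlcd-1. When windows were cut to 500 bp before and 100 bp after the 5′ end, atx-2 and tasp-1 kept their summits, and ecps-1 and K01G5.10 did not.

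**Figure D3:**
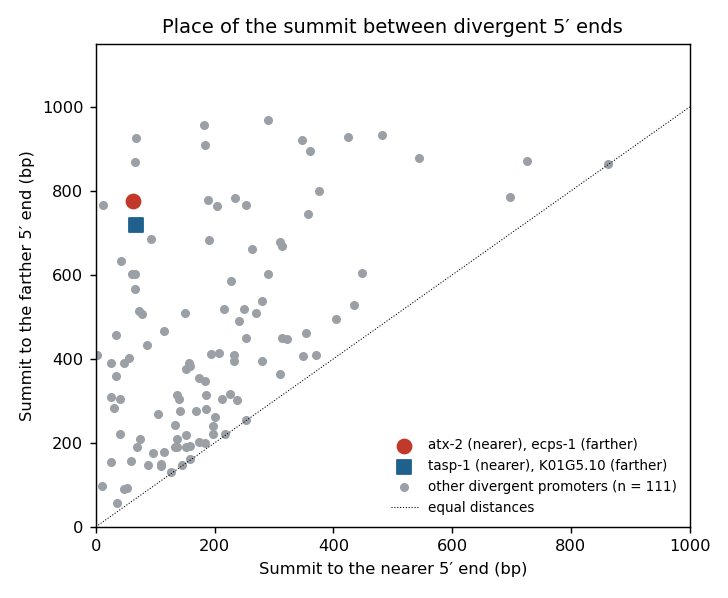
Distance in bp from the summit to the nearer (x axis) and the farther (y axis) of the 2 divergent 5′ ends, for the 113 thresholded peaks at divergent promoters. The points of atx-2 and ecps-1 (63 and 775 bp) and of tasp-1 and K01G5.10 (67 and 718 bp) lie beside each other at the upper left.

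No other thresholded summit lay within 10 kb of either peak. The same held for 304 of the 391 promoter peaks and for 8 of the 10 strongest, these 2 included. The nearest thresholded neighbours of the atx-2 summit were 53.9 kb to the left (signal 36.1, in the windows of hat-1 and M03C11.3) and 163 kb to the right (43.5, in no promoter window). Those of the tasp-1 summit were 52.0 kb to the left (34.9, in the windows of Y39A1A.22, Y39A1A.21 and mrpl-12) and 89.8 kb to the right (44.4, in those of fbxb-85 and hex-3). The 2 summits were 298 kb apart, with 3 thresholded peaks between them. Their nearest non-coding genes were also distant, D2045.10 at 23.0 kb from the atx-2 summit and K01G5.11 at 11.1 kb from the tasp-1 summit.

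In the pooled list, which by its name holds peaks and background, each summit had 3 further peaks within 10 kb, equal to the median over the promoter peaks. Around atx-2 they had signals of 15.1, 12.8 and 16.4, against 267 for the atx-2 peak. The first of these lay 569 bp to the left of the summit, in the same intergenic stretch and 206 bp from the 5′ end of ecps-1. In the replicate lists its counterparts lay 220 bp upstream of that 5′ end in replicate 1 (signal 7.06, rank 20487) and 23 bp upstream in replicate 2 (9.51, rank 3722). The separate peak in front of ecps-1 was close to the median of the pooled list (15.4), where it ranked 6354. The other 2 lay inside atx-2 and 46 bp from the 5′ end of cul-1, a cullin gene.

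Around tasp-1 the 3 pooled peaks had signals of 17.8, 12.9 and 17.2, against 184 for the tasp-1 peak. They lay in hpl-2, which encodes a heterochromatin protein 1 homologue, in K01G5.10 and in tasp-1 itself. The one in K01G5.10 lay 223 bp from the 5′ end of rnf-113, a gene that begins at the base after K01G5.10 ends. No pooled peak other than the tasp-1 peak lay between K01G5.10 and tasp-1. The peak inside tasp-1 and the one in K01G5.10 had counterparts in replicate 1 (14.1 and 10.8) and none in replicate 2.

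**Figure D4:**
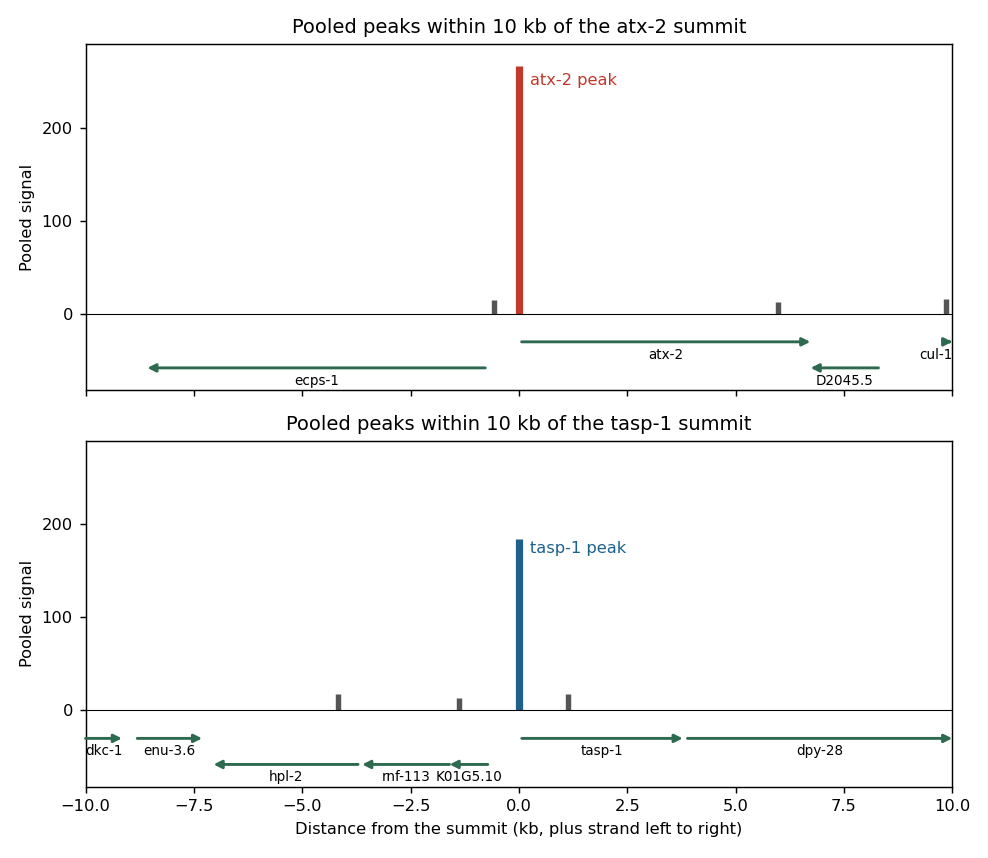
Pooled signal (y axis) of every pooled peak within 10 kb of the 2 summits, by distance in kb from the summit on the plus strand (x axis), with the genes as arrows that point in the direction of transcription. The atx-2 peak (267) and the tasp-1 peak (184) rise from the gap between divergent genes, and the 3 neighbours of each stay at 17.8 or below.

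Lists for the older ce10 build held peaks of nearly the same signal and width at these ranks. The nuclear peaks of the same rank in the ce10 lists had a signal of 267 (width 245 bp) and 184 (196 bp) in the pooled list, equal to the ce11 values to within 0.0001. In replicate 1 the ce10 signals were 146 for the atx-2 peak and 105 for the tasp-1 peak, with widths of 186 and 130 bp. In replicate 2 they were 120 and 80.6, with widths of 214 and 113 bp. These counterparts were matched by rank alone, so that their ranks are the same by construction, and no coordinate was moved between builds.

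The sequence under the peaks was rich in G and C. The GC content was 51.4% over the atx-2 peak and 54.6% over the tasp-1 peak, and 60.4% and 59.4% within 50 bp of the summits, against 35.4% over the nuclear genome. Windows of the same size and placement around the other 390 promoter summits had a median of 45.7% for the atx-2 layout and 47.4% for the tasp-1 layout, and 88 and 62 of them were at or above the 2 peaks. At the 5′ ends of all other genes the medians were 34.7% and 33.7%, and the 2 peaks were at percentiles 99.2 and 99.6 of these. None of the 214 and 165 words of 32 bp in the 2 peaks occurred anywhere else in the genome.

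Of 14 sequence patterns searched on both strands, 3 occurred in both peaks. The GC box GGGCGG had 1 match in each, where 19.2% and 17.4% of the other promoter peaks and 6.73% and 5.63% of other genes held it in windows of the same length. GAGAGA had 4 matches in the atx-2 peak, of which 3 overlap one another, and 1 in the tasp-1 peak, and 44.9% and 39.7% of the other promoter peaks and 18.7% and 15.7% of other genes held it. A run of 6 T had 1 match in each peak, and was held by 48.7% and 35.6% of the other promoter peaks, below the 72.7% and 67.7% of other genes. The short Myt1 family pattern AAGTT had no match in the atx-2 peak and 1 in the tasp-1 peak (32.3% and 23.6% of the other promoter peaks held it, below the 61.0% and 53.5% of other genes). The longer form AAAGTTT had no match in either (7.95% and 5.90% of the other promoter peaks, 17.7% and 15.3% of other genes). The cell cycle homology pattern TTTGAA, the E2F patterns GCGCGAAA as well as GCGGGAA, the TATA box TATAAA, the E-boxes CACGTG as well as CAGCTG, the CRE pattern TGACGTCA, the reverse CCAAT box ATTGG and the GATA pattern TGATAA were likewise not in these 2 windows.

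The 2 peaks had 5 words of 8 or 9 bases in common, which were found by comparing the 2 sequences and so are descriptions of them. GGGCGGAGT, which contains the GC box, occurred in 12 of the other 389 promoter peaks (3.08%) in a window of 196 bp around the summit, and at 0.656% of other genes. CGGCGCACT occurred in 2 of the 389 (0.514%) and at 0.0651% of genes. GCACACTT occurred in 13 (3.34%) and at 0.671% of genes. CTCTCTCG, which overlaps GAGAGA matches and in the atx-2 peak lies in the transcribed part that is not printed, occurred in 20 (5.14%) and at 0.921% of genes. AAAAAATC, which contains the T run, went the other way, with 21 peaks (5.40%) and 10.9% of genes. In both peaks GCACACTT began close to the left of the pooled summit, 22 bp before it in the atx-2 peak and 19 bp before it in the tasp-1 peak. In replicate 2 the tasp-1 summit lay 15 bp farther to the right, and so farther from this word.

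The 7-base word GGCGGAG, a part of GGGCGGAGT, was held by all of the 5 strongest promoter peaks over their whole widths and by none of the next 5. Other 7-base parts of GGGCGGAGT, GGGCGGA and GCGGAGT, were each held by 4 of the 10 strongest. In the atx-2 peak GGCGGAG had its centre 18 bp to the right of the summit. In the tasp-1 peak it occurred on both strands, 44 bp to the left of the pooled summit and directly on it. The replicate 2 summit of that peak lay 15 bp farther to the right. The copies on III and IV are printed with 10 bases on each side, read on the strand that holds the word, which is in capitals. They lie at chrIII:10461331-10461357 (plus strand), chrIII:10759183-10759209 (plus), chrIII:10759227-10759253 (minus), chrIV:8334200-8334226 (minus) and chrIII:3867542-3867568 (minus).
atx-2 and ecps-1: acttgcatagGGCGGAGtctcaggcaa
tasp-1 and K01G5.10, left copy: ggaaaaagtgGGCGGAGtgcgccgaac
tasp-1 and K01G5.10, summit copy: agcgtgttgtGGCGGAGtgtatgagaa
his-31 and his-32: ggggtgagaaGGCGGAGacctcattca
rpl-3: tagctgtggcGGCGGAGtgtacaagtg

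In windows of equal length (196 bp) the word was in 2 of the other 3 strongest promoter peaks, since the copy at his-31 and his-32 lies 97 bp from its summit. It was in 11 of the 40 promoter peaks ranked 11 to 50 (27.5%), 27 of the 341 below these (7.92%) and 19 of the 307 nuclear peaks outside promoters (6.19%), of which none was among the 10 strongest outside promoters. Without the atx-2 and tasp-1 peaks, from which the word was taken, divergent promoter peaks held it in 19 of 111 cases (17.1%) and other promoter peaks in 21 of 278 (7.55%). These groups were not matched for signal, and whether the difference goes with divergence at a given signal was not tested. At all other genes the share was 3.37%. The word was singled out after these sequences were seen, so the strongest promoter peaks beyond the 2 are not independent of the choice. Shares that include those peaks are no separate check of the word. Among the 21 words of 7 bases that the 2 peaks share, GAGAGAG was held by as many of the 10 strongest promoter peaks (5) and by 21.3% of the other 389, and no further one by more than 4. Shares by rank of signal were computed for GGCGGAG only. Whether a fall with rank is particular to that word was not tested.

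**Figure D5:**
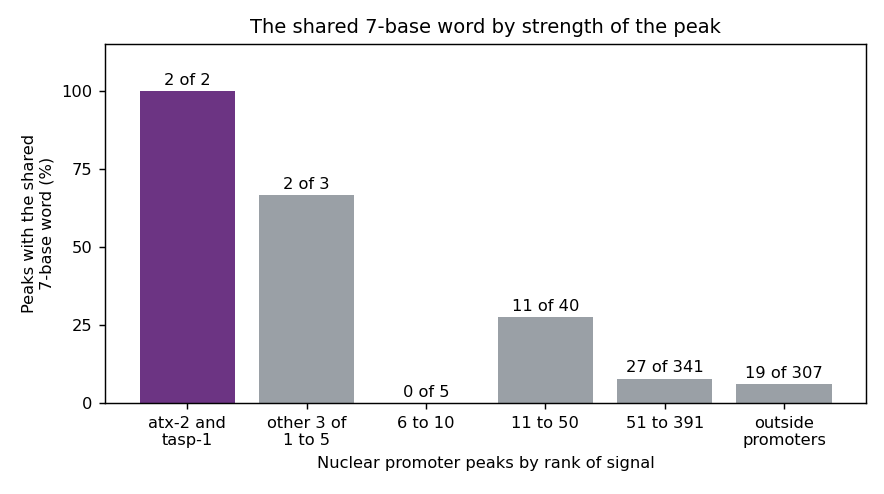
Share of peaks (y axis, %) that hold the shared 7-base word on either strand in 196 bp around the summit, for the 2 peaks from which it was taken (purple), other promoter peaks by rank of signal, and nuclear peaks outside promoters. The count stands over each bar, and beyond the 2 source peaks the shares are 2 of 3, 0 of 5, 27.5%, 7.92% and 6.19%. The word was singled out with the sequences of the strongest promoter peaks known, and no other shared word was examined by rank.

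Genes linked to the products of these promoters were examined in 3 short lists. Against the 2.65% of all protein-coding genes with a thresholded summit in the promoter window, 2 of 11 genes of the list around ataxin-2 had one. These were pab-2, which encodes a poly(A)-binding protein (signal 43.7), and zen-4, which encodes a kinesin of cytokinesis (35.3). The second list held 10 genes for subunits of Set1 and MLL complexes and TFIIA. It is wider than the MLL methyltransferases and TFIIA precursor that taspase 1 cleaves in mammals. Of these 10 genes, 3 had such a summit. They were set-16, an MLL-type methyltransferase gene (84.4, in a window shared with drr-2), ash-2, a core subunit gene (36.6, shared with Y17G7B.20), and pqn-51, which encodes the TFIIA large subunit homologue (35.3, shared with K11D12.14). Of 32 proteasome subunit genes 2 had one, rpn-3 (61.2, shared with hsp-110) and rpn-7 (48.0, shared with F49C12.9), both of the regulatory particle. All 7 of these signals were below those of the atx-2 and tasp-1 peaks, and 4 of them were below the nuclear median of 45.8. Among equally many of the strongest peaks of a single replicate, pab-2, ash-2 and pqn-51 had no summit without replicate 1, and zen-4 and rpn-7 had none without replicate 2. The lists were chosen with earlier results of these data known, so these shares are not a measure of enrichment. The counts are small and were not tested.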

How the data were processed

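The deposited files are peak lists from ChIP-seq of eGFP-tagged ZTF-11 in 2 biological replicates, with 1 list per replicate, 1 for both replicates together and 1 thresholded by the irreproducible discovery rate, each for ce11 and ce10, per the labels and the deposited listing of files. Each peak has a signal value from the authors' caller, relative to a control. The deposited −log10 q-value was at its maximum for 119 thresholded nuclear peaks, both peaks described here included, and served only as an alternative rank. The aligner, the caller and its cutoff: not given in the sources used here. No counts or depths were in the tables used, so no intervals are given.

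Ranks are among nuclear peaks of a list. A counterpart is the strongest peak that overlaps by at least 1 bp. Coordinates are 1-based on ce11, read against WBcel235, the same assembly, with the Ensembl release 115 annotation, and no ce11 peak end lay beyond the reference. Sequence came from the RefSeq copy of that assembly. Python 3.11.15, numpy 2.4.6, pandas 2.3.3 and matplotlib 3.10.9 were used, and the overlap, window and motif functions were tested on simulated data. Named genes were the 4 members, genes of the 10 strongest promoter peaks, genes at neighbouring peaks and bound members of the 3 lists. The members and lists were chosen with earlier results of these data known. No test was made, because signal chose the members and there is 1 group.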

Additional observations from a re-analysis of the deposited data

How the results depend on the processing

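No paired analysis was possible because the design holds 1 group. Of 43 alternatives over 11 results, 26 stayed within the spread between replicates or near the main count. For ranks, that spread came from the same 2 replicates. The rank of the atx-2 peak was 2 with mitochondrial peaks included and between 1 and 2 with either replicate set aside. By q-value it was 1, tied with the other peaks at the maximum, so that alternative could not differ. The rank of the tasp-1 peak was 6 with mitochondrial peaks included, 1 (tied with the other peaks at the maximum) by q-value, and between 3 and 4 with either replicate set aside. Each summit lay in the window of 1 gene, atx-2 or tasp-1, with 500 bp upstream to 100 bp downstream. The nearest 5′ end alone gives 1 gene by construction, again atx-2 or tasp-1. Pooled neighbours numbered 1 for atx-2 within 5 kb and 6 for tasp-1 within 20 kb. In equally long replicate lists they numbered between 1 and 3 for atx-2 and between 1 and 4 for tasp-1. Within 50 bp of the summit the pattern matches were 1 of 6 at atx-2 and 2 of 4 at tasp-1. With signal at or above the median, 0 genes of the ataxin-2 list and 1 of the Set1, MLL and TFIIA list had a summit. With either replicate set aside, the Set1, MLL and TFIIA list had between 2 and 3. The other 2 lists had 2 each way. The genes changed in all 3 lists: without replicate 1 they were par-5 and zen-4, set-16 and utx-1, and rpn-3 and rpn-7, and without replicate 2 they were pab-2 and szy-20, ash-2, pqn-51 and set-16, and rpn-3 and rpn-13. The ce10 lists gave no alternative rank, because peaks were matched to them by rank. With 2 replicates and no depth, no error of a signal can be given.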
